A study of Mus musculus with 686 samples.

Results

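The data described here are 100 transcript rows of long non-coding RNA (lncRNA) whose fragments were most enriched in brain, out of 9139 lncRNA rows in a small RNA sequencing study of mice. Each library was scaled to its lncRNA column sum, so that a level is a count per 1 M lncRNA counts (CPM). The mean level of each tissue was taken over control libraries of the live animal return (LAR), from both the habitat (HGC) and the vivarium (VGC) ground control. Members were chosen by these means, as the 100 rows with the largest ratio of brain mean plus 1 to the highest mean among the other 12 tissues plus 1. These ratios chose the rows and are given as a description, with no test. They rest on 234 control libraries, of which 8 are brain.

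The study sequenced 686 libraries of 13 tissues from female BALB/cAnNTac mice, 348 in LAR and 338 in the ISS terminated group (TERM). Spaceflight (FL) mice were compared with HGC mice, housed on the ground in flight hardware under matched conditions, and with VGC mice in standard cages. FL mice of LAR came back to Earth alive, while their controls had stayed on the ground, and tissues of all LAR mice were collected fresh and frozen, whereas TERM mice were killed earlier on orbit, or on the ground for their controls, and their carcasses were frozen and dissected after thawing. Spleens of TERM were the exception, being taken fresh into RNA Later before the carcass was frozen. For brain, extraction therefore joins time, freezing and, in FL alone, the return to Earth, which cannot be told apart within FL. Age differed in part as well, and an alternative fit used mice aged 3 months only. Brain had 12 LAR libraries, 4 in each arm, all from mice aged 3 months. It had 13 TERM libraries, with 4 FL (2 aged 3 months and 2 aged 8 months), 5 HGC (3 and 2) and 4 VGC mice (3 and 1).

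A small RNA library does not hold full-length lncRNA. A count in an lncRNA row is a short read that matches that transcript, and it can stem from a mature miRNA or small nucleolar RNA (snoRNA) encoded within it. Several loci are known for this. The imprinted Dlk1-Dio3 domain carries maternally expressed lncRNAs in one long stretch, among them Meg3, Rian, which hosts box C/D snoRNAs, and Mirg, which hosts a large miRNA cluster expressed in brain. Mir124a-1hg and C130071C03Rik host miR-124 and miR-9, which are abundant miRNAs of neurons and of neural progenitors.

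The 100 rows belong to 25 genes, so the list is narrower than its length. Rian alone holds 49 rows and Mirg 8, and with B830012L14Rik and Meg3 the Dlk1-Dio3 domain holds 65. Of the 100 rows, 44 have a near-identical partner, within 5% plus 3 counts in all 25 brain libraries. The rows form 67 such blocks, the largest of 16 rows. Rows of 1 gene share reads and are no independent measurements, and a sum over rows counts a shared read more than once. The ratios ran from 57.9 to 1.07 with a median of 4.83. A ratio above 10 was found for 23 rows and a ratio below 2 for 35. Levels were as uneven. Brain control means ran from 138671 to 0.160 CPM and were below 1 CPM in 24 rows, and in 18 rows the median count of the brain libraries was below 10.

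The sequences below are mature miRNAs encoded within member transcripts, shown because several host rows and their miRNAs had nearly equal counts. They are RefSeq sequences on GRCm38.p6, printed 5′ to 3′, with the seed (bases 2 to 8) in capitals. Within C130071C03Rik (ENSMUST00000131907.8) lie both arms of Mir9-2, at chr13:83738821-83738843 and chr13:83738858-83738879 on the plus strand.
miR-9-5p: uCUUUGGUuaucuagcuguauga
miR-9-3p: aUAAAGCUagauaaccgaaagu
In C78859 (ENSMUST00000212800.1) lies miR-138-5p at chr8:94324312-94324334, in Gm26871 (ENSMUST00000180593.1) miR-137-3p at chr3:118433901-118433923 and in Gm3294 (ENSMUST00000164104.2) miR-129-5p at chr6:29022624-29022644, each on the plus strand.
miR-138-5p: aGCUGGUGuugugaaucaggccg
miR-137-3p: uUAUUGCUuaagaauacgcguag
miR-129-5p: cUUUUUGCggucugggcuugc
In the Dlk1-Dio3 domain, Mirg rows hold miR-410-3p at chr12:109743764-109743784, miR-134-5p at chr12:109734145-109734166 and miR-485-3p at chr12:109734946-109734967, and Meg3 (ENSMUST00000146701.7) holds miR-770-3p at chr12:109563744-109563765, all on the plus strand.
miR-410-3p: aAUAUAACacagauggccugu
miR-134-5p: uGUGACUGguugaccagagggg
miR-485-3p: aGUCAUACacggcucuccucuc
miR-770-3p: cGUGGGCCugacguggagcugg
The A230057D06Rik transcript sequence holds that of miR-344d-3p. The RefSeq locus of this name, Mir344d-1, lies at chr7:61683127-61683148 on the minus strand and was not placed within the transcript. This miRNA has the same seed, AUAUAAC, as miR-410-3p.
miR-344d-3p: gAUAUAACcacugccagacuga
No other seed was shared among the miRNAs listed here. miR-124 is named only.

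Several host rows had nearly the same counts as their miRNAs. In the 25 brain libraries the count of Mir124a-1hg (ENSMUST00000180610.7) was 1.001 times that of both miR-124 arms together (median, range 1.001 to 1.004), and the 2 counts were within 2% of each other in all 25. C130071C03Rik stood at 1.003 times the miR-9 arms (1.001 to 1.009), and Gm26871 at 1.001 times the miR-137 arms (1 to 1.042). Mirg (ENSMUST00000183116.7) was at 1.013 times the miR-410 arms. C78859 exceeded the miR-138 arms in every brain library, with a median of 1.125 and a highest value of 9.045. Meg3 (ENSMUST00000146701.7) exceeded the miR-770 arms, with a median of 1.32 and a highest value of 7.81. Both highest values came from VGC TERM mouse 8, the brain library of lowest lncRNA total. Gm3294 held 5.94 times the count of miR-129-5p, but 0.945 times that of miR-129-5p with miR-129-1-3p and miR-129-2-3p (0.915 to 1.03). The latter arm is encoded at another locus.

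**Figure D1:**
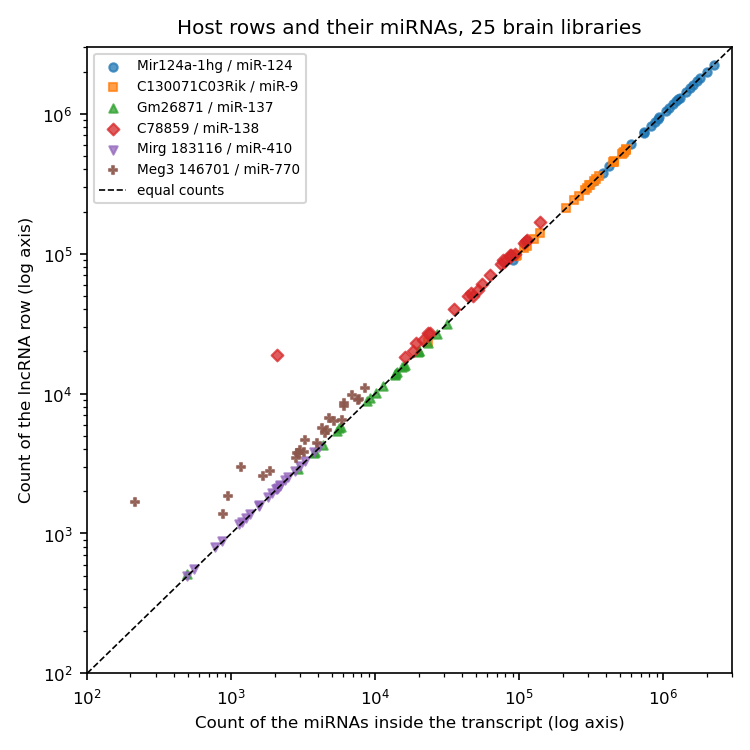
Counts of 6 host rows (y, log axis) against the summed counts of the miRNA arms they encode (x, log axis), 1 point per brain library and pair, 25 libraries, with a dashed line at equal counts. Points of Mir124a-1hg, C130071C03Rik and Gm26871 lie on the line, whereas C78859 and Meg3 lie above it and each has 1 library far from it.

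Outside brain the match was looser. There the median ratio was 3.10 for Mir124a-1hg over 626 libraries with a miR-124 count and 2.32 for C130071C03Rik, while Gm26871 stayed at 1.00. Of the 100 rows, 45 could be matched by identifier to GENCODE M21 transcripts, and 18 of these (40%) held a mature miRNA sequence or a miRNA gene in an exon, against 1.72% of all 8784 matched rows. The 49 Rian and 6 B830012L14Rik rows were not matched, so that fewer than 80% of the members have a sequence and comparisons of length or base content are void.

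For Rian the other small RNA counted was a snoRNA. In 24 of 49 rows the count was within 5% of that of 1 snoRNA row, or of 2 added together, in at least 20 of 25 brain libraries. The partner was Gm24895 alone in 18 of these, DQ267102 in 2 and AF357425 in 1, and the remaining 3 paired Gm24895 with AF357399 or DQ267100. For example, ENSMUST00000238580.1 was 1.004 times DQ267102 (1 to 1.027). The 12 largest Rian rows matched no snoRNA row or pair in more than 3 libraries.

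Over all brain libraries the 100 rows took 21.3 to 64.8% of the lncRNA counts, with a median of 46.7%. In the other 661 libraries the median was 1.03%. Among these, 7 libraries exceeded 10%. A single one, from lung of FL TERM mouse 13, reached the range of brain at 27.3%. Its counts lay in Rian rows, with 2.48% in ENSMUST00000202303.2 against a median of 0.0976% in the other lungs, while Mir124a-1hg held 0.0149%. The other 6 (BAT, pancreas, diaphragm and heart, 10.0 to 17.4%) had a miRNA profile closest to that of brain and miR-124-3p at 2.39 to 6.80% of their miRNA counts. All 6 were prepared on plate 4. Without the 166 libraries whose miRNA profile was closest to another tissue than their label, 93 of the 100 rows were chosen again. The ratio of Mir124a-1hg (ENSMUST00000180610.7) was then 102 in place of 57.9, and that of 1700041M05Rik 0.764 in place of 1.42. No brain library was among the 166.

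**Figure D2:**
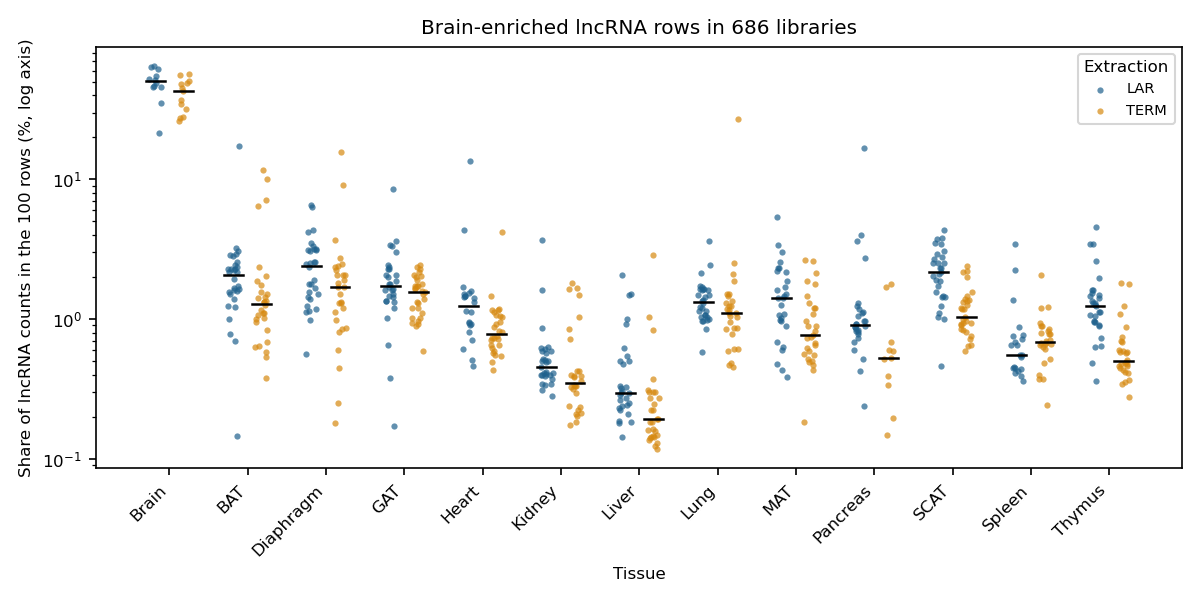
Share of each library's lncRNA counts in the 100 rows (y, percent, log axis) by tissue (x), with LAR and TERM side by side, 1 point per library and a line at the median. The 25 brain libraries lie between 21.3 and 64.8%, and 1 lung library at 27.3% lies among them.

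The label of brain was checked against miRNA markers. The 7 brain miRNAs fixed as a list (miR-124-3p, miR-9-5p, miR-9-3p, miR-128-3p, miR-137-3p, miR-129-5p and miR-138-5p) were all present and summed to 8.66 to 32.7% of miRNA counts, against a median of 0.0470% elsewhere. The lowest sum was in VGC LAR, at 8.66 to 23.2%, and HGC and FL of TERM reached down to 14.0 and 14.1%. In VGC LAR the 3 muscle miRNAs reached 4.69% in 1 library. The 3 red blood cell miRNAs reached at most 1.60%, and the liver miRNA, miR-122-5p, reached 2.83% in 1 HGC TERM library. The lncRNA totals of brain ranged from 0.695 to 20.1 M counts with a median of 8.14 M. The lowest belonged to VGC TERM mouse 8 and the next lowest was 3.78 M. In VGC TERM mouse 8, 263 of 9139 rows stood more than 10 times above every other brain library, and no other brain library had such a row. Counting error is largest there.

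Mir124a-1hg and C130071C03Rik, hosts of neural miRNAs, led the list. Mir124a-1hg (ENSMUST00000180610.7) had a brain control mean of 138671 CPM and a next highest tissue mean of 2394, in heart. That heart mean includes VGC LAR mouse 13, a library with a miRNA profile closest to brain, in which this row held 3.46% of the lncRNA counts. Without libraries of another profile the next highest mean was 1365, in MAT (mesenteric fat). C130071C03Rik (ENSMUST00000131907.8) followed with 39909 against 1140 in kidney. C78859, host of miR-138, a miRNA found in dendrites, had 7847 against 447 in thymus. Gm3294, host of miR-129, had 11883, and the 2 rows of Gm26871, host of miR-137, had 1732 and 1736. Of the Mirg rows, the highest ranked (ENSMUST00000183116.7 and ENSMUST00000181543.8) had 214 and 218 CPM in brain, and 9.76 and 10.3 in brown adipose tissue (BAT), the next tissue. The 3 Mirg rows that followed had 879, 879 and 883.

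Rian had the largest levels after the 2 leading hosts. Its ENSMUST00000202172.4 and nearly identical rows had means of about 21325 CPM, against 1724 in diaphragm, and ENSMUST00000202303.2 had the highest mean of the gene with 25568. Diaphragm was the next tissue for 38 of the 100 rows, BAT and subcutaneous fat (SCAT) for 13 each. The end of the list was close to its limit. Ranks 98 to 100 were Cdr1os (ENSMUST00000096426.5), Gm27032 and Rian (ENSMUST00000238771.1), with ratios of 1.08, 1.07 and 1.07, and ranks 101 to 103, just outside, were 2 Rian rows and Gm36560, each at 1.07 as well. All 6 had brain control means below 6 CPM.

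Of the lists fixed for comparison, all 4 Dlk1-Dio3 genes found in the table were members, with 65 of their 101 rows. Of 8 neural miRNA host genes found, 3 were members (C130071C03Rik, Mir124a-1hg and Mir124-2hg, 7 of 92 rows). The second miR-124 host, Mir124-2hg, had a mean of 0.363 CPM in its best row. No member row of this gene holds a miRNA gene in an exon, so this level is no measure of miR-124 from that locus. Of 9 neural lncRNAs, 1 was a member (Miat, at 0.261 CPM), and none of 11 widely expressed lncRNAs or of the imprinted H19 was. The median ratio was 2.09 over the Dlk1-Dio3 rows, 0.863 over the host rows, 0.827 over the neural lncRNA rows and 0.310 over the widely expressed rows, beside 0.836 over all rows.

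The brain levels were then compared with each of the other 12 tissues in libraries that the choice of rows had not used. In TERM, 86 of the 100 rows passed the filter on low counts, which many of them pass through brain alone. A row that passes in this way had to differ, so the counts that follow are a description and nothing is read from them. By edgeR's quasi-likelihood test (Benjamini-Hochberg adjusted p under 0.05 in all 12 contrasts) 82 were higher in brain than in each other tissue, where 5.85% of all 4105 rows tested were. In FL of LAR, 70 rows passed and 67 were higher in brain than in each other tissue, beside 3.14% of 2358 rows. The FL mice of LAR gave other tissues too, so libraries of different tissues can share a mouse there. In FL of LAR the brains came from mice aged 3 months alone and the other tissues from mice aged 3 and 8 months, so that age differed between brain and the rest.

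In TERM, Mir124a-1hg (ENSMUST00000180610.7) ranged from 36357 to 261890 CPM in 13 brains with a median of 124270, and its highest median elsewhere was 411, in 26 spleens. No library of another tissue reached the lowest brain, the highest being a BAT library at 29321, and the smallest log2 margin was 5.43 ± 0.57 (SE, over BAT). For C130071C03Rik the TERM brains ranged from 11428 to 89372 CPM, and the highest median elsewhere was 621 in 28 kidneys. Here 1 or more libraries of diaphragm (up to 16310) and BAT (up to 14681) overlapped with brain, and the kidneys did not fall below 142. Gm26871 had a median of 1087 CPM in TERM brain and 72.0 in liver, where it was the next tissue, and its ranges, 392 to 3454 and 4.38 to 242, did not overlap, though a BAT library reached 414.

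Among the Dlk1-Dio3 rows, Rian (ENSMUST00000202172.4) ranged from 7327 to 30033 CPM in TERM brain and had a median of 894 in diaphragm, with a highest diaphragm library of 8452 and a highest lung library of 18888, so that ranges overlapped. Its smallest log2 margin was 3.90 ± 0.43 (SE), over diaphragm. Mirg (ENSMUST00000183116.7), at a median of 170 CPM in TERM brain, had a smallest margin of 4.98 ± 0.41 over BAT. Meg3 (ENSMUST00000146701.7), with a TERM median of 543 in brain and 206 in MAT, also overlapped.

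A few rows were not higher than every tissue. Both B230208H11Rik rows were lower in TERM brain than in TERM pancreas, by a log2 difference of -0.71 ± 0.23 (SE, edgeR adjusted p = 0.00725) and -0.73 ± 0.23 (adjusted p = 0.00561), and higher than in the other 11 tissues. 1700041M05Rik was higher than 11 tissues and G630018N14Rik than 9. The smallest margin of 1700041M05Rik in TERM was 0.07 ± 0.61, again over pancreas. In FL of LAR the exceptions were Mir124a-1hg (ENSMUST00000181808.2, higher than 11 tissues), Rian (ENSMUST00000202717.2, 6) and 1700041M05Rik (5). B830012L14Rik (ENSMUST00000238810.1), a further transcript of the Dlk1-Dio3 domain, was higher than each of the 12 with a smallest margin of 1.69 ± 0.56 over pancreas (SE, edgeR adjusted p = 0.0281). With a replicate block for shared mice this was 1.56 and no longer called (adjusted p = 0.0798).

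**Figure D3:**
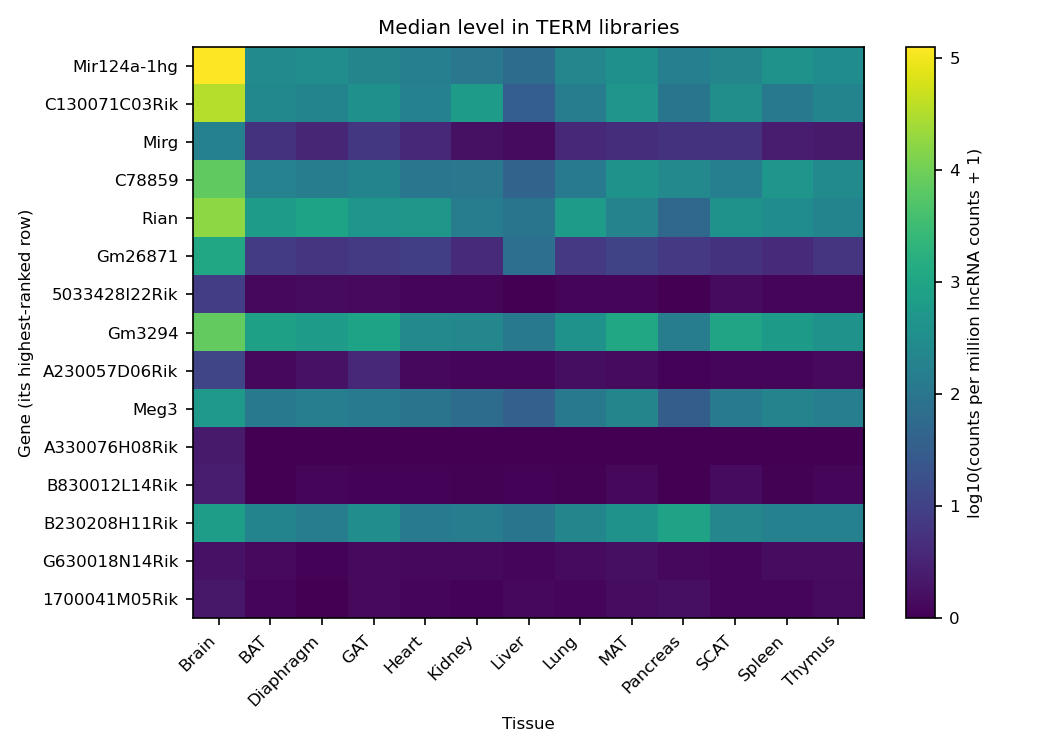
Median level in TERM libraries by tissue (x) of the highest-ranked row of each of 15 genes (y), as log10 of counts per 1 M lncRNA counts plus 1 (colour). Mir124a-1hg, C130071C03Rik, Rian, C78859 and Gm3294 are bright in brain alone, and B230208H11Rik is brighter in pancreas than in brain.

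Spaceflight was compared with HGC and VGC in LAR brain, where HGC and VGC libraries had taken part in choosing the rows. The comparisons of an extraction share their libraries pairwise. The share of lncRNA counts in the 100 rows was 53.0 ± 6.96% in FL, 56.6 ± 8.93% in HGC and 38.8 ± 13.7% in VGC (SD, n = 4 each). The ranges overlapped in all 3 pairs. In TERM the shares were 40.9 ± 12.2% in FL (n = 4), 41.3 ± 9.90% in HGC (n = 5) and 41.1 ± 13.9% in VGC (n = 4). No p is given for a sum over rows chosen this way.

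Mir124a-1hg (ENSMUST00000180610.7) took 12.4, 14.8, 16.6 and 14.0% of the lncRNA counts in the 4 FL LAR brains. In HGC LAR it took 23.3, 13.7, 20.7 and 15.8%, and in VGC LAR 9.91, 5.40, 13.1 and 9.04%. FL and HGC overlapped, and all 4 HGC libraries lay above all 4 VGC libraries, of which mouse 5 was lowest. Muscle, vessel and red blood cell miRNAs reached further in VGC LAR than in HGC LAR, in at least 1 library each. Their highest sums were 4.69 against 0.365%, 3.17 against 1.39% and 1.60 against 0.778%. Their medians were 0.318 and 0.345%, 0.645 and 0.585%, and 0.220 and 0.181%. The highest sums of liver and choroid plexus miRNAs were also higher in VGC LAR, at 0.0291 against 0.0214% and 3.13 against 2.66%. Those of white blood cell and endocrine miRNAs were lower in VGC LAR, at 0.54 against 0.66% and 0.56 against 0.60%. The part of these in the difference was not tested. The log2 fold change was -0.26 ± 0.49 (SE) for FL vs. HGC, 0.91 ± 0.50 for FL vs. VGC and 1.17 ± 0.50 for HGC vs. VGC. None passed, with edgeR adjusted p of 0.951, 0.493 and 0.816 in this order. The sum of the 7 brain miRNAs also had its lowest single value in VGC LAR. It includes miR-124-3p, whose reads this row counts, and is no separate measurement.

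Rian (ENSMUST00000202172.4) stood at 35321, 23198, 24740 and 21456 CPM in FL LAR. It stood at 26634, 22540, 26562 and 17702 in HGC and at 14093, 9874, 28148 and 25048 in VGC. The 3 arms overlapped, with the highest library in FL and the lowest in VGC. Its log2 fold change was 0.29 ± 0.52 for FL vs. HGC and 0.70 ± 0.52 for FL vs. VGC, with edgeR adjusted p of 0.951 and 0.493.

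No member was called in any of the 3 arm comparisons of LAR brain. Of 1356 rows tested, 0.0% were called in each by edgeR, and 76 members were among them. At an unadjusted p under 0.05 there were no members in both flight comparisons (0 and 0) and 7 in the housing comparison HGC vs. VGC (0, 3 and 15 in DESeq2), and DESeq2 called 0 members in each. Over all rows 9.66, 3.83 and 3.91% stood under this unadjusted threshold in edgeR, in the same order. In DESeq2 these shares were 10.7, 6 and 6.67% of 1349 rows. The median log2 fold change of the members was 0.16, 0.82 and 0.71, beside -0.16, -0.14 and -0.23 over all rows. Scaling to column sums alone turned the first median to -0.12 and the median of all rows to -0.38. The HGC and VGC libraries had chosen the rows, so these medians and the unadjusted counts are a description. The rows with the smallest unadjusted p in FL vs. HGC were 1700041M05Rik (-1.44 ± 0.80, adjusted p = 0.711), A330076H08Rik (-1.16 ± 0.75, 0.893) and G630018N14Rik (-0.94 ± 0.73, 0.905), each at 12.3 CPM or less in every LAR brain. Without HGC LAR mouse 13 the first was -0.16 and the third -0.36. In FL vs. VGC they were Mirg (ENSMUST00000181496.1, 1.25 ± 0.67, adjusted p = 0.493) and the 2 Mir124a-1hg rows ENSMUST00000180610.7 and ENSMUST00000186703.1 (1.05 ± 0.58 for the latter). In HGC vs. VGC they were G630018N14Rik (1.89 ± 0.76, adjusted p = 0.816) and the 2 rows of Gm26871 (1.70 ± 0.68 each, and 0.99 without HGC LAR mouse 1).

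The rule of fold and Cohen's d that the study applied to miRNAs, which uses no p, gave another count for the housing comparison. It called 29 of the 76 members in HGC vs. VGC, all higher in HGC, beside 10.5% of all rows. The same libraries had chosen the rows and many rows share reads, so nothing is read from this count. It called 1 member in FL vs. HGC (4.57% of all rows) and 1 in FL vs. VGC (19.0%). In TERM it called 0 members in FL vs. HGC (0.83% of all rows), 2 in FL vs. VGC (14.8%) and 1 for housing (10.8%). The rule that chose the rows pooled HGC and VGC.

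In TERM, whose libraries the choice of rows did not use, Mir124a-1hg (ENSMUST00000180610.7) took 10.3, 12.4, 6.67 and 3.64% of the lncRNA counts in FL. It took 16.2, 17.8, 9.97, 13.5 and 6.99% in HGC and 5.68, 13.0, 26.2 and 15.7% in VGC. All 3 arms overlapped, and the lowest library was FL mouse 18, aged 8 months. The log2 fold change was -0.51 ± 0.59 (SE) for FL vs. HGC and -0.18 ± 0.62 for FL vs. VGC, with edgeR adjusted p of 0.997 and 0.973.

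Again no member was called. Of 1928 rows tested in TERM, 0.0% were called in each arm comparison by edgeR, and 88 members were tested. At an unadjusted p under 0.05 there were 0 members against HGC and 13 against VGC for FL, and 3 in HGC vs. VGC (1, 12 and 7 in DESeq2), and DESeq2 called 0 members in each. Over all rows the edgeR shares were 0.363, 10.7 and 7.16%, and the DESeq2 shares 1.32, 15.2 and 7.39%. Of the 13 members in edgeR, 11 were Rian rows, which share reads. For FL vs. HGC the median log2 fold change of the members was 0.10 beside -0.0033 over all rows, and -0.09 beside -0.03 with column sums alone, so that the order of the 2 medians turned. The smallest p in FL vs. HGC belonged to Rian (ENSMUST00000238225.1), with 1.06 ± 0.57 and an adjusted p of 0.997 (0.60 without FL TERM mouse 8). Cdr1os (ENSMUST00000125930.8, 1.14 ± 0.93) and Rian (ENSMUST00000202303.2, 0.60 ± 0.53, and 0.30 without FL TERM mouse 18) followed, both with an edgeR adjusted p of 0.997. In FL vs. VGC the same row had 1.69 ± 0.62 (adjusted p = 0.406) and Rian (ENSMUST00000202303.2) had 1.34 ± 0.57 (0.448). Without FL TERM mouse 8 the former was 0.98, and without FL TERM mouse 18 the latter was 0.85. The latter stood at 29938, 36538, 17761 and 26604 CPM in FL TERM and at 17738, 13948, 16042 and 21268 in VGC TERM. The ranges overlapped, and 3 of 4 FL libraries exceeded every VGC library.

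Meg3 (ENSMUST00000143272.7) had the smallest p in 2 TERM comparisons and rested on 1 library. Its level was 1860 CPM in VGC TERM mouse 8, and 7.66 to 60.4 in the other 12 TERM brains. The log2 fold change for FL vs. VGC was -3.28 ± 1.09 (adjusted p = 0.393) with this library and 0.28 without it, and for HGC vs. VGC -3.53 ± 1.01 (0.403) with it and 0.03 without it. In HGC vs. VGC, Gm3764 (ENSMUST00000181356.1, -1.85 ± 0.75, adjusted p = 0.542) and Cdr1os (ENSMUST00000125930.8, -2.36 ± 0.98, 0.542) followed. Without VGC TERM mouse 8 these were -0.28 and -0.50. Cdr1os, the transcript on the strand opposite the gene Cdr1, stood at 23.0 CPM in VGC TERM mouse 8 and at most at 2.05 in every other TERM brain.

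The difference of FL vs. HGC between LAR and TERM was tested as an interaction, and 0 of 88 members passed, beside 0.0% of 1998 rows. At an unadjusted p under 0.05 there were 0 members in edgeR (2.1% of all rows) and 1 in DESeq2 (2.2% of all rows), which called 0. The smallest p belonged to 1700041M05Rik, with an interaction of -2.14 ± 1.12, and -0.59 without HGC LAR mouse 13. A330076H08Rik (-1.34 ± 0.93) and Gm3294 (1.05 ± 0.75) followed, and each of the 3 had an edgeR adjusted p of 0.992. In TERM, mice aged 8 months were compared with those aged 3 months, and 0 of 90 members passed, beside 0.0% of 2053 rows. There 3 members stood at an unadjusted p under 0.05 in edgeR (2.14% of all rows) and 5 in DESeq2 (7.65% of all rows), which called 0. The former 3 were the Rian rows ENSMUST00000238495.1 (-0.84 ± 0.36), ENSMUST00000238771.1 (-0.83 ± 0.36) and ENSMUST00000202717.2 (-0.85 ± 0.38), each with an edgeR adjusted p of 0.998.

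**Figure D4:**
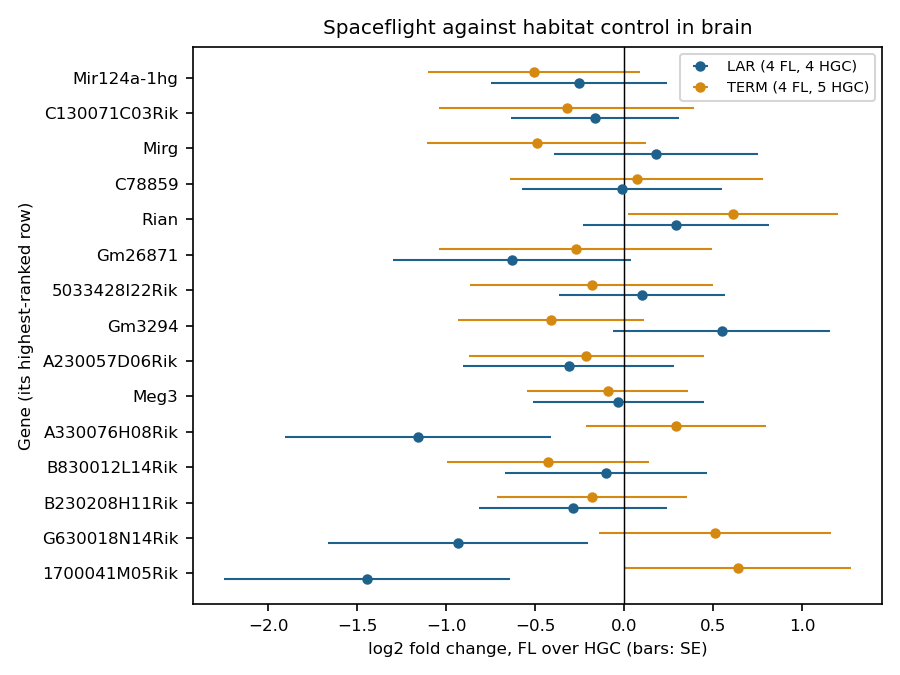
log2 fold change of FL over HGC in brain (x, bars are SE) for the highest-ranked row of each of 15 genes (y), in LAR (4 FL and 4 HGC libraries) and TERM (4 FL and 5 HGC libraries), from edgeR. The values lie between -1.44 and 0.64 and none passed an adjusted p of 0.05.

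Extraction was compared within FL, the one arm of LAR that the choice of rows did not use. Of 88 members tested, 5 passed, 2 higher in LAR and 3 higher in TERM. Without single libraries the count ran from 3 to 21, with 21 without VGC TERM mouse 8, 10 without VGC LAR mouse 5, and 3 without FL LAR mouse 5 or 17 or FL TERM mouse 7 or 17. Over all 1998 rows, 2.15% passed, 0.551% higher in LAR and 1.6% higher in TERM. At an unadjusted p under 0.05 there were 68 members, 42 of them Rian rows that share reads, beside 24.2% of all rows. Of the 88, 12 had not passed the filter on low counts in LAR brain alone, among them the 3 called higher in TERM. These 3 entered through TERM, where they are high, and had to differ, so their count and tests are a description. The median log2 difference of the members was 1.41 (LAR over TERM), beside -0.09 over all rows. Members were chosen for high brain levels in LAR controls, and 61 of them were chosen again from TERM controls, so a lean towards LAR is part of the choice and nothing is read from these counts and medians. With column sums alone these medians were 0.14 and -1.38, so scaling shifted the members and all rows alike.

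The 3 rows higher in TERM were low-count Rian transcripts that passed the filter through TERM alone. ENSMUST00000238495.1 stood at 0.570, 0.445, 1.04 and 0.170 CPM in FL LAR and at 37.2, 14.3, 9.24 and 7.06 in FL TERM. Every FL TERM library exceeded every FL LAR library. The log2 difference was -3.33 ± 0.59 (SE, edgeR adjusted p = 0.00116), -4.87 with column sums alone and -3.46 with no filter on low counts. The same held for ENSMUST00000238771.1 (-3.36 ± 0.63, adjusted p = 0.00213), at 0 to 0.933 in FL LAR and 5.91 to 30.6 in FL TERM. It held too for ENSMUST00000202717.2 (-3.04 ± 0.65, adjusted p = 0.00896), at 0 to 1.05 and 7.11 to 43.2. The zeros are those of FL LAR mouse 17, where a count of 0 allows up to 0.511 CPM. The controls, whose LAR values helped to choose the rows, are described alone. ENSMUST00000238495.1 stood at 0.422 to 1.06 in HGC and VGC of LAR and at 5.43 to 25.5 in HGC and VGC of TERM. Large Rian rows did not follow, as ENSMUST00000202172.4 had a log2 difference of 1.37 ± 0.58 (adjusted p = 0.143).

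The 2 rows higher in LAR were miRNA hosts. Gm3294, host of miR-129, stood at 10805, 16099, 7992 and 35186 CPM in FL LAR and at 11837, 7422, 3903 and 5320 in FL TERM. The ranges overlapped, and FL LAR mouse 17 was highest. Its log2 difference was 2.46 ± 0.57 (adjusted p = 0.0146). Scaling to column sums left it at 1.30 (adjusted p = 0.0435). It was not called without FL LAR mouse 5 (2.28) or 17 (2.26), or FL TERM mouse 7 (2.38) or 17 (2.27). Its own arm, miR-129-5p, had a mean of 2191.5 per 1 M miRNA counts in FL LAR and 2438 in FL TERM. For miR-129-2-3p, encoded at another locus, the means were 22372 and 9285. These miRNA levels were not tested. Mir124a-1hg (ENSMUST00000180610.7), with the shares given above, had 2.06 ± 0.55 (adjusted p = 0.0391, and 0.329 at most over the alternatives), and its highest FL TERM library, at 12.4%, lay just above its lowest FL LAR library. Scaling to column sums left it at 0.81 and not called (adjusted p = 0.094). Over 30 alternatives Gm3294 was called in 24 and Mir124a-1hg in 15. The log2 differences of the 3 Rian rows ranged over these from -4.87 to -2.99, -4.90 to -2.95 and -4.72 to -2.63, in the order given above.

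The shares of the small RNA classes were set side by side, with no test. Of the counts of all 7 classes in brain, tRNA took a median of 4.90% in LAR (2.20 to 40.7%) and 27.7% in TERM (19.0 to 46.1%), snoRNA 50.1% (19.0 to 70.1%) and 37.7% (24.8 to 51.4%), and lncRNA 14.3% (7.42 to 17.5%) and 9.60% (7.14 to 17.1%). The ranges overlapped in all 3 classes. The 7 brain miRNAs summed to 24.9 to 32.6% of miRNA counts in FL LAR and to 14.1 to 28.3% in FL TERM. Highest sums in FL LAR and FL TERM were 0.398 and 2.73% for muscle, 1.13 and 2.02% for vessels and 0.441 and 0.897% for red blood cells. They were 0.577 and 0.893% for endocrine, 0.591 and 0.530% for white blood cell and 0.442 and 0.377% for liver miRNAs. The part of these shares in the values above was not tested.

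**Figure D5:**
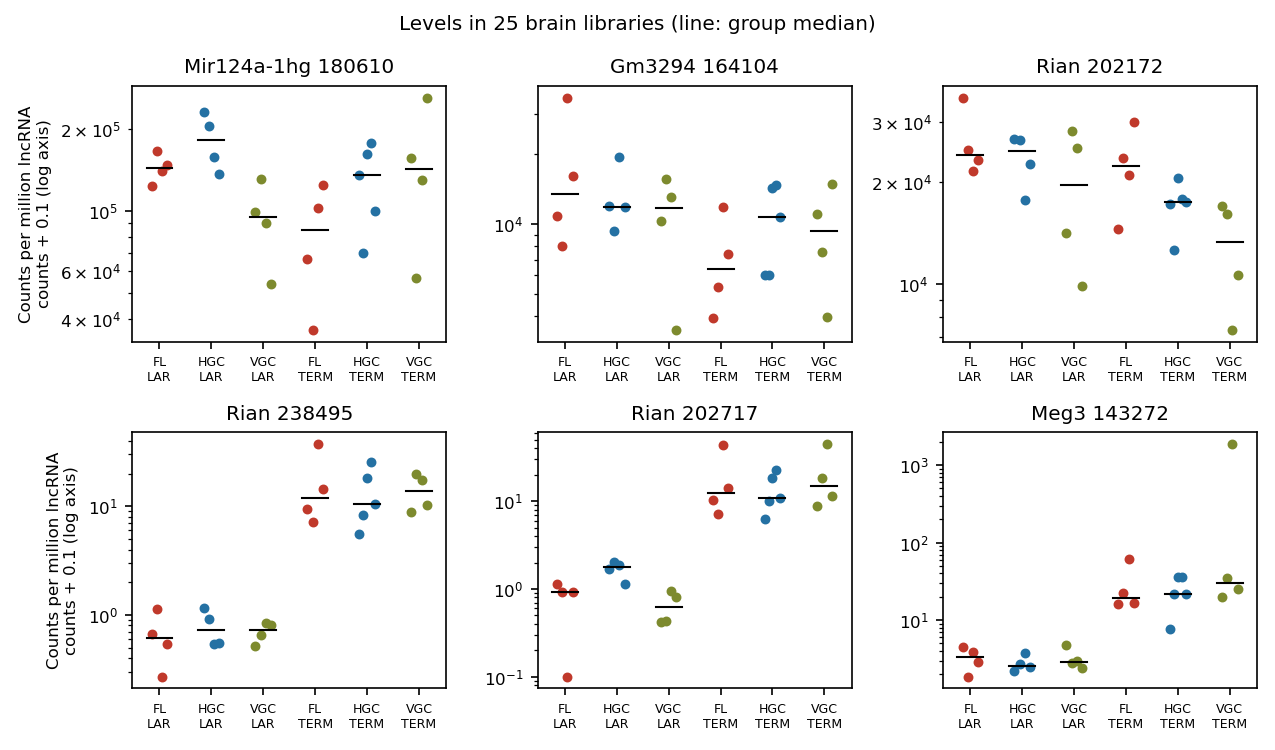
Levels of 6 member rows in 25 brain libraries by arm and extraction (x), as counts per 1 M lncRNA counts plus 0.1 (y, log axis), 1 point per library and a line at the median; panel titles give the gene and the end of the transcript identifier. In the panels of the 2 low-count Rian rows every TERM point lies above all LAR points, and in the Meg3 panel 1 VGC TERM library lies at 1860.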

How the data were processed

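Small RNA was sequenced by the authors from 686 tissue samples. They mapped reads to GRCm39 with miRMaster 2.0 and miRBase 22.1 and deposited raw counts for each lncRNA transcript and library, and for snoRNA and the other classes. How a read that matches several transcripts is counted is not given in the sources used here. The miRNA values deposited are estimated counts, since some carry fractions. Members and lists were chosen with earlier results of these data known. Levels were scaled to the lncRNA column sum. Tests used edgeR (glmQLFit, TMM factors, filterByExpr) with Benjamini-Hochberg adjustment over all rows tested, called at 0.05, in edgeR 4.0.16, limma 3.58.1 and R 4.3.3, with DESeq2 as an alternative. The tests were also run on simulated data, whose setting and outcome are not given here, so no error rate is claimed. Sequences and exons came from RefSeq and GENCODE M21 (GRCm38). Replicates are separate mice. Same-numbered brains of different arms did not deviate together (correlation -0.48 to 0.38 over 12 pairs in LAR and -0.31 to 0.34 over 11 in TERM), so no pairing was used. The floor given for a count of 0 covers counting error only. Each SE is that of the edgeR fit and each SD is taken between libraries.

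The rows named are the 12 with the largest ratio, the 10 with the largest brain mean, those on the fixed lists, ranks 98 to 103, in each comparison the 5 called rows with the smallest adjusted p or else the 3 with the smallest unadjusted p, and the 3 with the smallest margin of brain. Other member rows were named after their values were seen, where a comparison needed them.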

Additional observations from a re-analysis of the deposited data

How the results depend on the processing

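Membership of the 100 rows was shared by 84 to 98 rows under another scale, the median, another added value or FL of LAR, by 93 to 99 without single libraries or those of another profile, and by 61 with TERM controls. Calls in the arm comparisons of LAR stayed at 0 except for 31 by the rule of fold and Cohen's d. In TERM they were 1 with column sums alone, 6 with no filter on low counts, 3 by the rule of fold and 0 to 1 without single libraries, where VGC mice 7 and 9 gave 1. For FL of LAR against FL of TERM, 5 calls became 11 with column sums alone, 3 with no filter, 19 with DESeq2 and 3 with 3-month mice only. Leaving out single libraries gave 3 to 21, with 21 without VGC TERM mouse 8, 10 without VGC LAR mouse 5, and 3 without FL LAR mouse 5 or 17 or FL TERM mouse 7 or 17. The cause was not tested. The share called over all rows is not given for these alternatives, so nothing is read from their counts of calls. Without VGC TERM mouse 8 the log2 fold change of Meg3 (ENSMUST00000143272.7) reversed to 0.28 for FL vs. VGC and 0.0276 for HGC vs. VGC, and without single libraries these ranged from -3.91 to 0.28 and from -4.18 to 0.0276. The smallest margin in FL of LAR reversed with column sums alone to -0.34 for Rian (ENSMUST00000202717.2) and -0.55 for 1700041M05Rik, and in TERM to -0.39 for 1700041M05Rik without libraries of another profile. Rows higher in brain than in each other tissue numbered 61 to 66 in FL of LAR and 82 to 88 in TERM without single libraries or those of another profile. Only 4 of 13 single-library fits were run in TERM. With column sums alone they numbered 58 of 70 in FL of LAR (2.46% of all rows) and 82 of 86 in TERM (4.14%). With no filter they numbered 73 of 100 (0.841%) and 93 of 100 (3.76%). With a replicate block the 67 in FL of LAR became 65, B830012L14Rik (ENSMUST00000238810.1, margin 1.56, adjusted p = 0.0798) being no longer called, and the 0 calls of the arm comparisons in LAR and in TERM stayed 0. No paired analysis was possible for FL of LAR against FL of TERM because these are different mice. The 1 number they share, mouse 17, belongs to a mouse aged 3 months in LAR and 8 months in TERM. At 4 or 5 libraries a group and 18 rows under 10 counts, small differences may have been missed.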

Other observations

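The choice of rows depended on extraction. Applied to the TERM controls, the same ratio placed Cdr1os (ENSMUST00000231449.1), ranked 6143 here and no member, first with 92.5. This row stood at a mean of 9.91 ± 1.45 CPM in FL, 13.9 ± 4.62 in HGC and 3.91 ± 1.94 in VGC of LAR brain (SD, n = 4 each). In TERM brain it stood at 763 ± 843 in FL (n = 4), 908 ± 643 in HGC (n = 5) and 765 ± 417 in VGC (n = 4). The lowest TERM brain, at 202, lay above the highest LAR brain, at 17.2. This row was singled out after its values were seen and was not tested. Of the rows chosen from TERM controls, 61 were members. With VGC TERM mouse 8 left out, a choice made after seeing the data, 76 were.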
